A study of Homo sapiens with 8 samples.

Results

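RPL3 and GAS5 and the 50 kb on each side of them held 33 of the 129536 peaks of open chromatin counted in this series. The members were every peak that overlaps the RefSeq body of either gene or lies within 50 kb of it, 21 at RPL3 and 12 at GAS5. On GRCh38, RPL3 (gene ID 6122, protein coding) spans chromosome 22, 39312882 to 39319623, and GAS5 (gene ID 60674, a long noncoding RNA gene) spans chromosome 1, 173863901 to 173869045. Both lie on the minus strand, so lower coordinates are downstream, past the 3′ end. Counted that way, RPL3 had 10 downstream peaks, 2 over the gene and 9 upstream, and GAS5 had 7, 1 and 4.

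Accessibility was read out by Omni-ATAC-seq: nuclei are exposed to a transposase, which can cut and tag DNA only where it is open. There were 4 libraries of vehicle-treated cells and 4 of cells kept for 1 h in 0.2 M sorbitol, a sugar alcohol that makes the medium hyperosmotic and draws water out of cells. All 8 came from HEK293, a human embryonic kidney cell line, with the genotype eGFP-YAP, a fluorescent fusion of the transcriptional coactivator YAP that vehicle and sorbitol cells alike carry. The titles give only HEK293, the library names contain "wt", and the series description adds 1 h of serum starvation before sorbitol. Whether the line is a single clone, and whether libraries came from separate cultures, is not given in the sources used here, so the spread between libraries may be partly technical.

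RPL3 encodes uL3, a protein of the large ribosomal subunit that reaches towards the site where peptide bonds are made. GAS5 makes no protein. Its transcript is spliced to release small nucleolar RNAs from its introns, and the spliced RNA is known to accumulate in growth-arrested cells. Small nucleolar RNAs of the box C/D class guide methylation of ribosomal RNA. RPL3 is a host of small nucleolar RNAs as well: the annotation places 4 of their genes inside RPL3 (SNORD43, SNORD139, SNORD83A and SNORD83B). It places 11 inside GAS5, SNORA103 among them, whose name is outside the box C/D (SNORD) series. Both genes belong to the highly transcribed class whose messages start with a run of pyrimidines and whose translation follows growth signals.

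Both promoters are shown because the peak over the RPL3 start was called lower and the peak at the GAS5 start was not. Each line gives the 250 bases before the annotated start, 5′ to 3′ on the minus strand, from RefSeq (GRCh38.p14). The RPL3 window is chr22:39319624-39319873 and the GAS5 window is chr1:173869046-173869295. The start peak covers all 250 bases of the RPL3 window but only 46 bases of the GAS5 window, so the windows do not stand for the peaks alike. The GAS5 window also lies inside ZBTB37, a gene read in the other direction. Capitals mark matches, on either strand, to 6 motifs. The cyclic AMP response element was searched as TGACGTCA. The ETS motif was searched as CCGGAAG, and for SP1 the letters searched were GGGCGG. For the TATA box the letters were TATAAA. The TATA-like run was read as TATATA, and the last motif was the CCAAT box.
RPL3: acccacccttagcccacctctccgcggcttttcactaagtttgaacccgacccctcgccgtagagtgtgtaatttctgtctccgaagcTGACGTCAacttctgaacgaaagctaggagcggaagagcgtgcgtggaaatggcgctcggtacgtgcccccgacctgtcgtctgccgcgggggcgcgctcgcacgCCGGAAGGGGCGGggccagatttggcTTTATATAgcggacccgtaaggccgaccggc
GAS5: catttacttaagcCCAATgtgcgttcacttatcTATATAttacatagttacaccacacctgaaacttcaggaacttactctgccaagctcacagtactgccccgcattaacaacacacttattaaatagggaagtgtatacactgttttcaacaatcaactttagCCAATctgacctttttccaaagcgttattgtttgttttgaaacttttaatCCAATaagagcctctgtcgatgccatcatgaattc
RPL3 held 1 match each to the cyclic AMP response element, the ETS motif and the SP1 motif, beginning 162, 57 and 50 bases before the start, so that the ETS and SP1 matches touch. It also held a TATA box on the opposite strand and a TATA-like run, which overlap and begin 31 and 29 bases before the start. Of 35116 RefSeq promoter windows of this length, 1.65% held the cyclic AMP response element, 8.52% the ETS motif, 42.6% the SP1 motif, 10.7% the TATA box and 3.73% the TATA-like run. GAS5 held 3 CCAAT boxes, present in 32.0% of windows, and a TATA-like run that begins 217 bases before the start. Neither window held TGANTCA (the AP-1 motif, in 6.57% of windows) or GGAATG (the TEAD motif, in 11.9%). The RPL3 window was 62.0% G and C and the GAS5 window 37.2%, against a median of 58.0%. A match describes the letters only.

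Library totals ranged from 11522266 to 19831471 counts in peaks, and log2 counts correlated at 0.956 to 0.974 within a group and 0.925 to 0.939 between groups. Vehicle 4 and sorbitol 4 lay at opposite ends of the second principal component (60.5 and -68.7), which held 11.5% of the variance. Counts were therefore also taken without them. Of the HEK293 markers given here, LHX1, NEFM and NEFL had a peak within 1 kb of the start or, with no strand given, of either end, and PAX2 had none. The markers of other cells gave no such peak at PTPRC, CD3E, ALB, APOA2 and KRT5, and peaks at SPI1, MYOD1 and PECAM1. Peak levels are given in CPM, the count of a peak per 1000000 counts of its library, with no correction for peak width. Log2 fold changes (sorbitol over vehicle) and their standard errors (SE) come from edgeR's quasi-likelihood fit over all 129487 tested peaks with TMM scaling (trimmed mean of M-values). A peak is called where the Benjamini-Hochberg adjusted p was under 0.05. Across all tested peaks, 29.1% were called, 16.0% higher and 13.1% lower, and 5.27% were called and at least 2-fold higher. Higher peaks made up 54.9% of calls, 67.4% with library totals alone and 79.7% with factors from peaks at gene ends, under which the median peak stood at 0.19 in place of 0.01.

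Both genes were chosen by measured values of this same contrast, the log2 fold changes of peaks downstream of them. Members' values are therefore a description, and no test of them is given. All 33 members passed the filter on low counts. Downstream, 11 of 17 peaks were called higher and 5 lower, and upstream 2 of 13 were higher and 3 lower, beside 16.0% and 13.1% over all peaks. At least 2-fold increases were called at 9 downstream peaks and 1 upstream peak, beside 5.27% over all peaks, and no member was called 2-fold lower, beside 0.881%. Vehicle and sorbitol libraries did not overlap in CPM at 22 of 33 members, beside 26.8% over all peaks, with sorbitol above at 14 and below at 8. The downstream counts were also 11 higher and 5 lower without vehicle 4 and sorbitol 4, whereas the upstream count of lower peaks went from 3 to 1. The plot of change by distance shows the order along the DNA: lower peaks within 5 kb of each gene's 3′ end, higher peaks from 10 to 35 kb at RPL3 apart from the uncalled one at 19.85 kb, higher peaks from 12 to 22 kb at GAS5, and a lower peak 38.6 kb from GAS5.

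**Figure D1:**
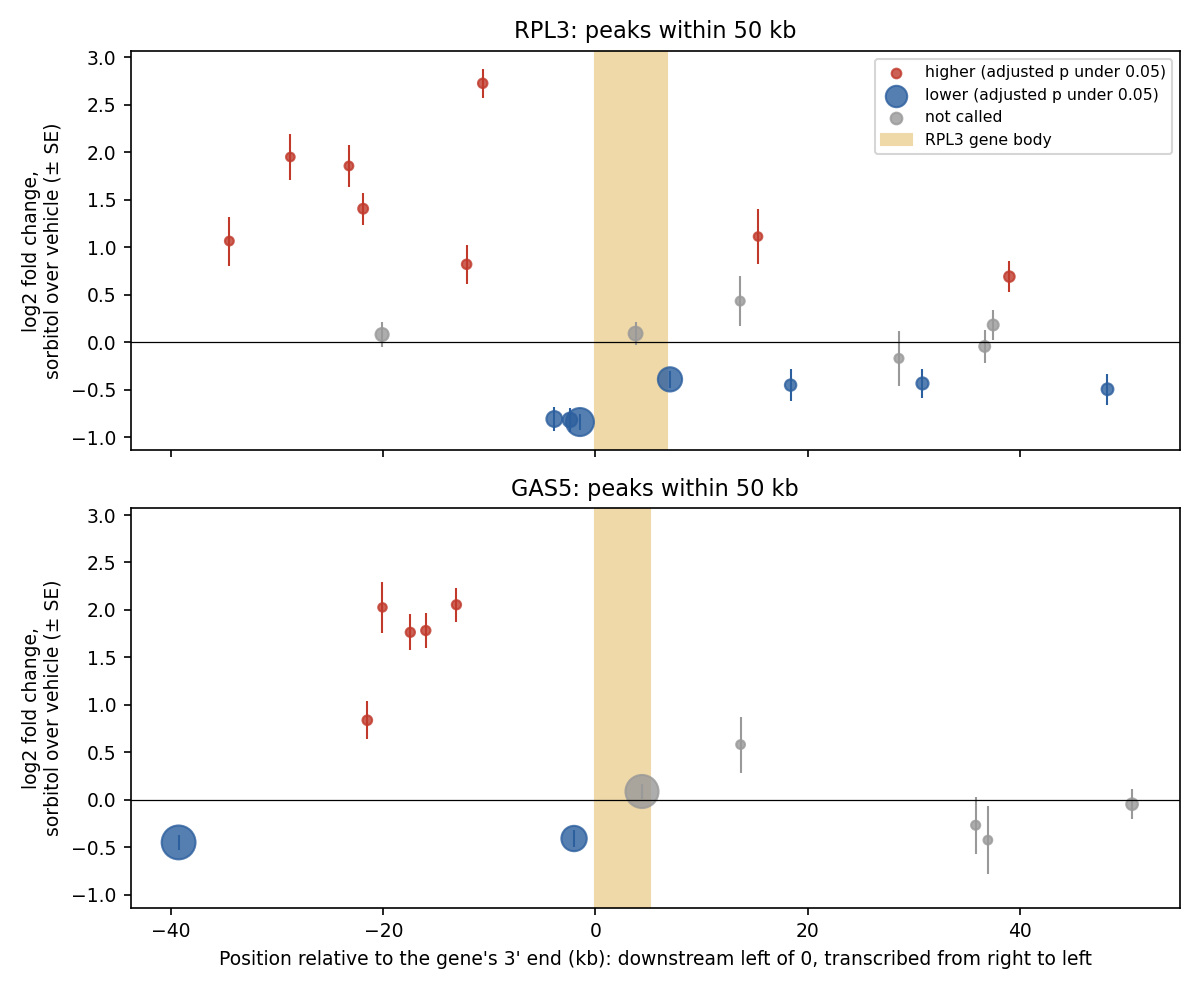
Log2 fold change of each member peak (sorbitol over vehicle, bars ± SE from the edgeR fit) against its position relative to the gene's 3′ end in kb, with the gene body shaded and circle size growing with the vehicle level. Downstream peaks lie left of 0: those within 5 kb were lower, and those called between 10 and 35 kb downstream were all higher, up to 2.73 at RPL3 and 2.05 at GAS5.

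The start of RPL3 was less accessible after sorbitol. The start peak (chromosome 22, 39319157 to 39320648), which covers the whole promoter window above, measured 45.8, 43.8, 35.3 and 36.6 CPM in vehicle replicates 1 to 4 and 31.8, 34.9, 32.3 and 31.6 CPM in sorbitol replicates 1 to 4. The lowest vehicle library was above the highest sorbitol library, narrowly. Its mean moved from 40.4 ± 5.21 to 32.6 ± 1.52 CPM (SD, n = 4). The log2 fold change was -0.39 (SE 0.09). It was -0.21 with a loess offset and also -0.21 with factors from gene-end peaks, and still called lower under each. Over all genes, 44.0% of start peaks were called lower. A smaller peak inside the gene, at 39316454 to 39316861 over SNORD139, was not called, with overlapping groups and a log2 fold change of 0.09 (SE 0.12).

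The 3′ end of RPL3 had a larger drop than its start. In vehicle the peak just past the gene, 0.88 kb downstream at 39310828 to 39312002, held more counts than the start peak. Its libraries gave 57.1, 58.8, 57.9 and 48.9 CPM in vehicle and 35.3, 30.3, 33.9 and 32.5 CPM in sorbitol. No sorbitol library reached the lowest vehicle library, vehicle 4. The mean dropped from 55.7 ± 4.59 to 33.0 ± 2.15 CPM (SD, n = 4), and its log2 fold change was -0.84 (SE 0.08), or 1.79-fold lower. Peaks at 2.18 kb (39310234 to 39310706) and 3.63 kb (39308746 to 39309257) fell by nearly the same factor, with log2 fold changes of -0.82 (SE 0.13) and -0.81 (SE 0.12), again with no overlap between groups. Non-overlap in this direction was seen at 9.47% of all tested peaks. Summed over these 3 peaks, the first 5 kb past RPL3 went from 82.0 ± 4.11 to 48.9 ± 4.02 CPM (SD, n = 4).

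Between 10 and 35 kb past RPL3 the direction was the opposite. The peak 10.3 kb downstream (39301910 to 39302593) was weak in vehicle, with 1.64, 2.24, 2.07 and 3.05 CPM, and reached 14.3, 16.2, 16.1 and 16.2 CPM in sorbitol. Every sorbitol library was more than 4 times the highest vehicle library. Its log2 fold change was 2.73 (SE 0.15), a 6.62-fold rise, and 0.00154% of tested peaks had a larger one. After sorbitol it was more accessible than each of the peaks 2.18 and 3.63 kb from the gene, which in vehicle had been several times stronger.

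Farther out, 4 neighbouring peaks rose in an unbroken row from 39278263 to 39291244. The nearest, 21.6 kb from the gene (39290722 to 39291244), held 3.28, 2.53, 2.62 and 2.91 CPM in vehicle and 7.38, 7.96, 6.76 and 9.47 CPM in sorbitol, a log2 fold change of 1.41 (SE 0.17). At 23.1 kb (39289496 to 39289791) the values were 1.12, 1.49, 1.11 and 1.36 CPM and 5.03, 3.58, 5.55 and 5.36 CPM, a log2 fold change of 1.86 (SE 0.22). At 28.6 kb (39283954 to 39284291) they were 0.920, 0.747, 1.21 and 1.36 CPM and 4.69, 3.11, 5.72 and 3.97 CPM, a log2 fold change of 1.95 (SE 0.25). In all 3 the lowest sorbitol library stood above the highest vehicle library. The outermost of the row, 34.4 kb away (39278263 to 39278482), rose from 1.97, 1.03, 0.958 and 1.49 CPM to 3.56, 3.11, 3.03 and 2.30 CPM, a log2 fold change of 1.07 (SE 0.26), with no overlap between groups, and it is the last member on this side. A further peak at 12.0 kb (39300570 to 39300905) was called higher by less than 2-fold, with a log2 fold change of 0.82 (SE 0.20).

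One peak among the rising ones did not follow. At 19.85 kb (39292503 to 39293036), at the start of LOC124905119, an uncharacterised long noncoding RNA gene on the plus strand, vehicle libraries held 8.47, 10.4, 7.92 and 7.52 CPM and sorbitol libraries 8.42, 10.8, 9.45 and 9.82 CPM. The groups overlapped and its log2 fold change was 0.08 (SE 0.13). Unlike the 6 rising peaks between 10 and 35 kb, none of which lies in or within 1 kb of an end of an annotated gene, it sits at a gene start, and in vehicle it was stronger than each of them.

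Upstream of RPL3 no such block appeared. The peak 8.44 kb before the gene (39328058 to 39328344) rose from 0.985, 0.920, 0.807 and 1.29 CPM to 2.43, 2.23, 2.69 and 1.81 CPM, a log2 fold change of 1.11 (SE 0.28), and was the only upstream member called 2-fold higher. Its groups did not overlap, and it is a weak peak, with a mean of 16.5 counts in vehicle libraries. A peak at 32.1 kb inside SYNGR1, the gene of the synaptic vesicle protein synaptogyrin 1, was called higher with a log2 fold change of 0.69 (SE 0.16), while those at 11.4, 23.8 and 41.2 kb were called lower, with log2 fold changes of -0.45, -0.43 and -0.49. None of these 3 lower calls was made with TMM factors from gene-end peaks. Both peaks at the SYNGR1 start (-0.04 and 0.18) and the other 2 upstream peaks were not called.

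The peak at the start of GAS5 was not called. It (chromosome 1, 173867477 to 173869091) covers 46 bases of the promoter window, the first part of the gene and the start of ZBTB37, a zinc finger gene read in the other direction. Vehicle libraries held 78.8, 80.4, 79.1 and 78.9 CPM and sorbitol libraries 87.7, 91.2, 85.7 and 92.2 CPM, so every sorbitol library was above every vehicle library. The log2 fold change with TMM scaling was 0.09 (SE 0.07). With library totals alone it was 0.17, with a minimum mean of 50 counts 0.17, with gene-end factors 0.26 and with a loess offset 0.31, and each of these was called higher. Sorbitol libraries all above vehicle libraries were seen at 17.3% of tested peaks.

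Past the 3′ end of GAS5 the first peak fell. It lies 1.03 kb away (173860890 to 173862872), within 1 kb of an end of GAS5-AS1, an antisense RNA gene that overlaps the GAS5 3′ end, and held 41.0, 42.9, 51.2 and 43.5 CPM in vehicle and 38.8, 33.0, 37.6 and 33.6 CPM in sorbitol. The groups did not overlap, and its log2 fold change was -0.41 (SE 0.09), beside -0.84 at the RPL3 end. With a loess offset these were -0.23 and -0.65, and with gene-end factors -0.23 and -0.66, all still called lower.

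From 12 to 22 kb past GAS5, all 5 peaks rose. The nearest, at 12.8 kb (173850537 to 173851053), had 1.64, 1.67, 2.12 and 2.24 CPM in vehicle and 7.46, 7.72, 10.3 and 8.36 CPM in sorbitol, a log2 fold change of 2.05 (SE 0.18), or 4.15-fold. Next, at 15.8 kb (173847713 to 173848101), came 1.45, 2.07, 2.47 and 1.97 CPM against 7.46, 6.29, 7.98 and 7.66 CPM, with 1.78 (SE 0.18). At 17.2 kb (173846228 to 173846668) the libraries gave 2.30, 1.55, 2.12 and 1.76 CPM against 5.64, 6.69, 8.06 and 7.45 CPM, with 1.76 (SE 0.19). For each of these the sorbitol libraries were more than 2 times the highest vehicle library. The weakest of the group, at 19.97 kb (173843713 to 173843935), went from 1.51, 0.575, 0.857 and 0.610 CPM to 3.82, 3.58, 3.47 and 4.39 CPM, with 2.03 (SE 0.27) and a vehicle mean of only 14.8 counts, again with no overlap. At 21.3 kb (173842209 to 173842580) the rise was smaller, 0.84 (SE 0.20).

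None of the 5 lies within 1 kb of a gene end. The strongest member peak in vehicle lies farther out, 38.6 kb from GAS5 (173823949 to 173825267), at an end of CENPL, a centromere protein gene. This peak fell from 84.1, 89.2, 81.2 and 78.9 CPM to 65.3, 60.0, 65.6 and 68.0 CPM, a log2 fold change of -0.45 (SE 0.08), with no overlap. The peak at that gene end was thus lower and the 5 peaks 12 to 22 kb from GAS5 were higher. Upstream of GAS5, in ZBTB37 and in SERPINC1, the antithrombin gene, none of the 4 peaks was called, and their log2 fold changes ran from -0.42 to 0.58.

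**Figure D2:**
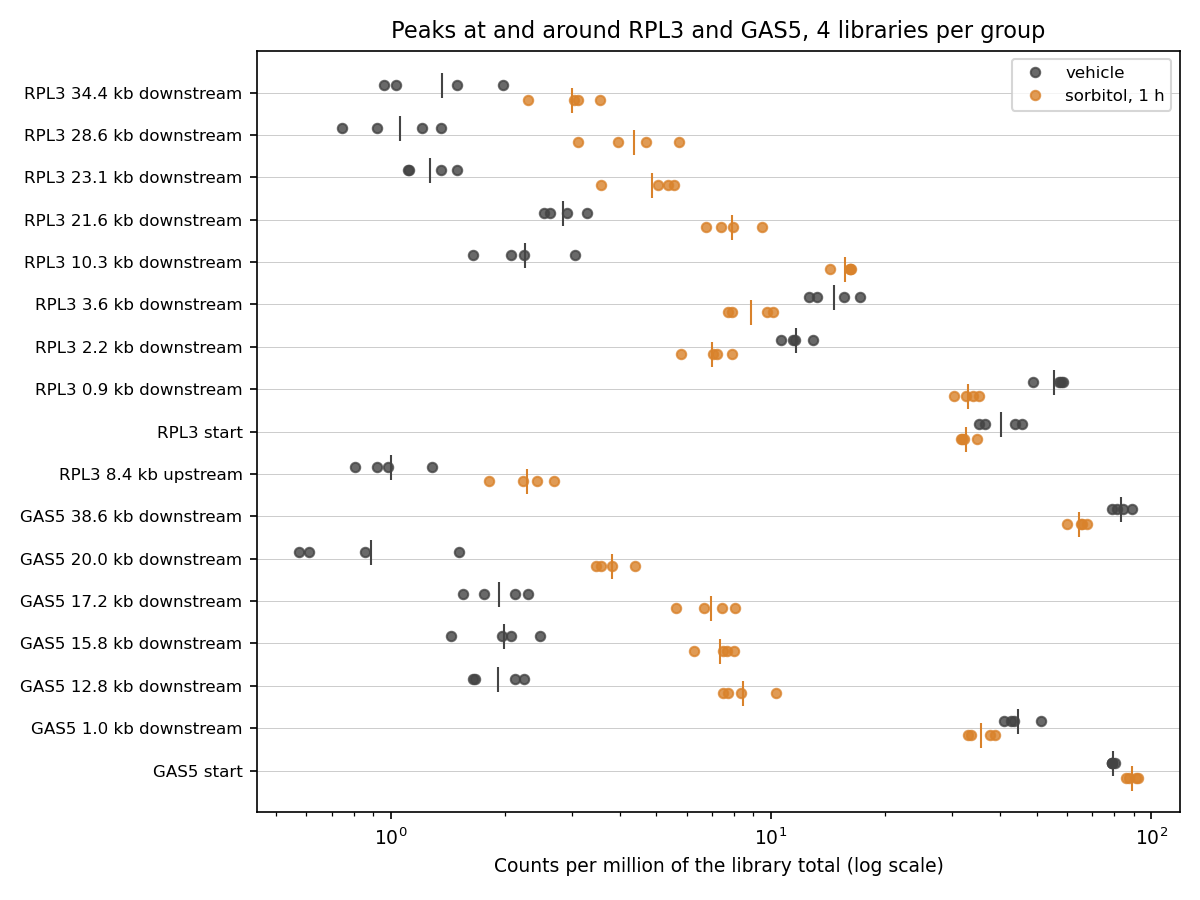
Level in CPM (log axis) of each member peak called at least 2-fold higher, each downstream peak called lower and both start peaks, with 1 point per library and a tick at the group mean. Peaks 10 to 35 kb downstream start between 0.888 and 2.84 CPM in vehicle and lie entirely to the right after sorbitol, whereas the downstream peaks called lower start at 11.6 CPM or more and lie to the left.

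The sums by distance put both loci on a single scale. Between 10 and 35 kb downstream, a window chosen after the values were seen, the 7 RPL3 peaks summed to 19.5, 20.2, 18.8 and 19.99 CPM in vehicle and 47.5, 49.0, 51.5 and 51.1 CPM in sorbitol, a ratio of means of 2.53. The 5 GAS5 peaks summed to 9.59, 8.39, 9.38 and 9.49 CPM and 30.0, 27.9, 35.2 and 32.0 CPM, a ratio of 3.40. The libraries of each group lie close together and the groups are far apart. In the same window upstream, the 6 RPL3 peaks summed to 26.5 ± 1.92 and 27.6 ± 3.02 CPM and the 2 GAS5 peaks to 2.83 ± 0.524 and 2.37 ± 0.232 CPM (SD, n = 4), with overlapping groups at both genes.

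**Figure D3:**
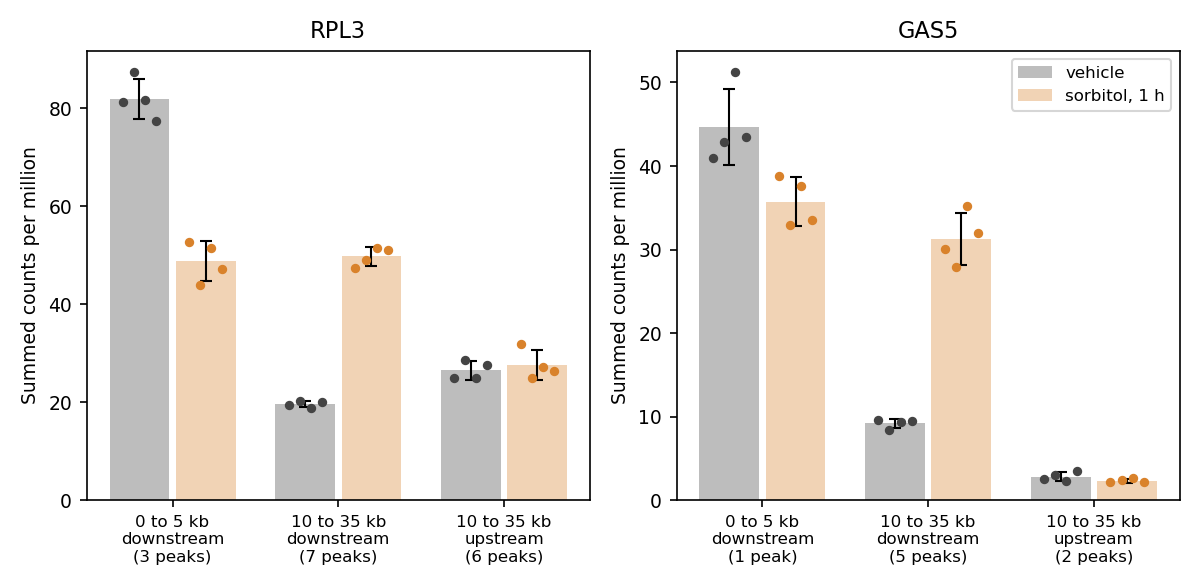
Summed CPM of member peaks in 3 distance windows at RPL3 and GAS5 (bars, mean; error bars, SD; points, the 4 libraries of each group). Downstream, the first 5 kb fell at both genes and the 10 to 35 kb window rose to 49.8 CPM at RPL3 and 31.3 CPM at GAS5, while the upstream window overlapped between groups.

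Summed over the whole 50 kb, the downstream counts hardly moved against the upstream ones. The log2 ratio of all downstream to all upstream counts, which needs no library scaling, was 1.53 ± 0.09 in vehicle and 1.43 ± 0.09 in sorbitol at RPL3, and 3.82 ± 0.37 and 3.68 ± 0.15 at GAS5 (SD, n = 4). The groups overlapped at both genes, with differences of -0.10 and -0.14. The few strong peaks that fell held 80.7% ± 0.837 of downstream RPL3 counts in vehicle and 49.5% ± 2.37 in sorbitol, and 93.3% ± 0.563 and 76.3% ± 1.31 at GAS5. The median over peaks gives a different picture: 0.94 downstream against -0.04 upstream at RPL3, and 1.76 against -0.16 at GAS5. Without peaks at ends of other genes the GAS5 ratio rose by 1.68, from -0.08 ± 0.35 to 1.60 ± 0.20, and that of RPL3 changed by -0.09. This setting left out the 2 downstream GAS5 peaks called lower. The one 1.03 kb past GAS5 was left out because an end of GAS5-AS1 lies within 1 kb of it. The downstream RPL3 peaks called lower lie at no end of another gene and were kept.

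The 11 downstream peaks called higher shared several traits. They were 220 to 684 bp wide, none lay within 1 kb of a gene end, and their vehicle means of 0.888 to 2.84 CPM were all below the median of tested peaks, 2.86 CPM. These traits did not set them apart. Uncalled upstream peaks 6.78 and 21.7 kb from RPL3 and 8.42, 30.5 and 31.7 kb from GAS5 were also away from gene ends. Those were 210 to 309 bp wide, with vehicle means of 1.21 to 1.63 CPM. The upstream RPL3 peak at 8.44 kb, called higher, was likewise narrow and weak. The 5 downstream peaks called lower were 473 to 1983 bp wide and had 11.6 to 83.4 CPM in vehicle, above the upper quartile of 6.61. Level and direction moved together among the downstream members, and the part of level was not tested. Rows of at least 4 adjacent peaks called 2-fold higher, such as those past RPL3 and GAS5, occurred 44 times in the table, among 5849 rows of any length, and the longest rows held 6 peaks.

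The 50 kb limit left out no peak close to it. The outermost members lay 34.4 kb downstream and 41.2 kb upstream of RPL3, and 38.6 and 45.2 kb from GAS5. The next peaks outside were 59.0 and 65.2 kb from RPL3 and 72.0 and 58.1 kb from GAS5, none was called, and their log2 fold changes ran from 0.32 to 0.49.

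Lower peaks close to the gene were also frequent at other ribosomal protein genes and other hosts of small nucleolar RNAs, on both sides. Of 77 peaks within 5 kb downstream of ribosomal protein genes other than RPL3, 55 were called lower and 1 was called higher (median log2 fold change -0.58). At host genes other than GAS5, 22 of 34 were lower and 3 higher (median -0.67). Over all genes with a known strand, 29.8% of 9205 such peaks were lower and the median was -0.18. Among peaks of at least 10 CPM in vehicle, 26 of 30, 13 of 14 and 60.8% were lower in these 3 sets. Within 5 kb upstream, 10 of 19 peaks of ribosomal protein genes and 5 of 11 of host genes were lower, against 1762 of 7055 over all genes, and the difference between sides was not tested. At gene starts, 24 of 62 start peaks of ribosomal protein genes and 10 of 24 of host genes were lower, against 44.0% of 10654.

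Several strong increases on the downstream side were rare. Of 9595 genes with at least 3 peaks on each side, 13 (0.135%) had 4 or more downstream peaks called at least 2-fold higher, RPL3 with 5 and GAS5 with 4 among them, and 17 (0.177%) had as many upstream. RPL3 and GAS5 were chosen by these same downstream changes, so their place among all genes is a description only. With a minimum mean of 50 counts, 2 such downstream peaks were left at RPL3 and 3 at GAS5, fewer than 4 at each. Neighbouring genes share peaks: ZBTB37, upstream of GAS5, and LOC124905119, downstream of RPL3, are among the 17. None of the 39 other ribosomal protein genes and none of the 18 other host genes had 4 on either side. Named after their values were seen, HNRNPU, which encodes a nuclear RNA-binding protein, had 5 such downstream peaks and MIR17HG, the host of a microRNA cluster, had 4. The median downstream log2 fold change exceeded the upstream one by 1.92 at GAS5, and with these 50 kb flanks no gene of the 9595 had a larger difference. With 100 kb flanks the GAS5 difference was 0.90, and 107 of 18230 genes had a larger one. At RPL3 the difference was 0.99 with 50 kb flanks, and 51 genes had a larger one. Its direction depends on the flank and on weak peaks: it was 0.42 with 100 kb flanks (1247 genes larger) but -0.80 with 20 kb flanks (1075 of 1105 genes larger). With a minimum mean of 50 counts the RPL3 medians were -0.28 downstream and -0.16 upstream, over 6 peaks on each side. With 50 kb flanks the difference was at least 1 at 0.511% of all genes, and at 1 of the 39 other ribosomal protein genes (2.56%), RPS9 (1.25), which encodes a protein of the small subunit, and at none of the 18 other host genes. Over all genes the median of this difference was -0.01.

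**Figure D4:**
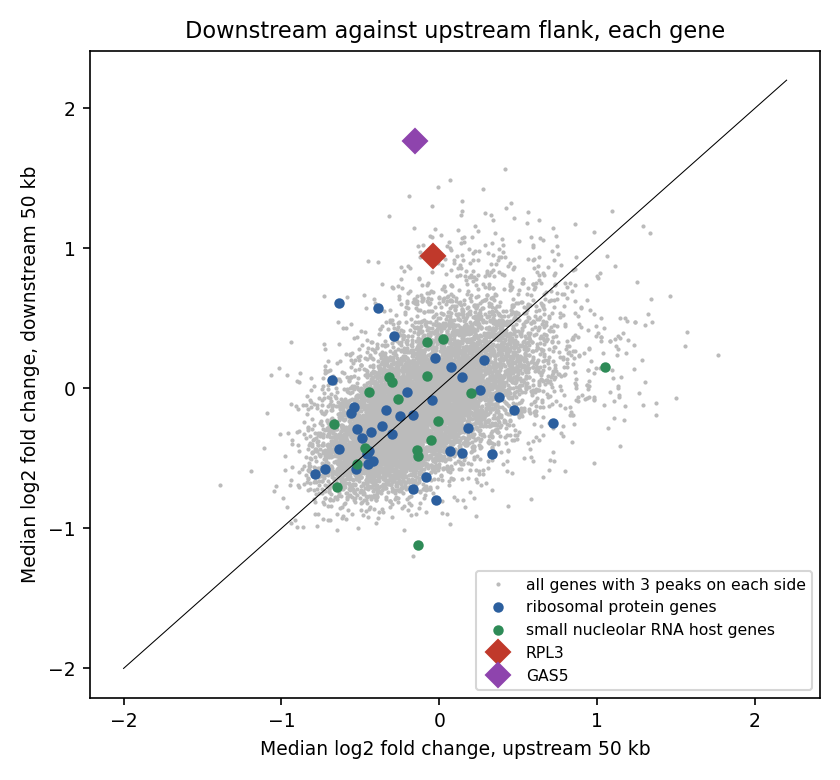
Median log2 fold change of peaks in the 50 kb downstream (vertical) against the 50 kb upstream (horizontal), 1 point for each of 9595 genes with at least 3 peaks on each side, with the line of equality. GAS5 (1.76 against -0.16) and RPL3 (0.94 against -0.04) lie above the line, and the other ribosomal protein and host genes lie on both sides of it.

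Medians over many genes did not rise with distance to the levels seen at RPL3 and GAS5. In the lists, the shares of higher peaks rest on few peaks. For all genes, median log2 fold changes in 6 bins out to 50 kb ran from -0.18 to -0.11 downstream and from -0.14 to -0.10 upstream. Downstream of the other ribosomal protein genes the median went, unevenly, from -0.58 in the first 5 kb to -0.08 at 40 to 50 kb. Downstream of the other host genes it went from -0.67 to 0.003. Between 10 and 20 kb downstream 11.6% of peaks were called higher over all genes, 9.26% at the other ribosomal protein genes and 19.2% at the other host genes, whose 26 peaks there had a median of -0.31. Away from gene ends, where the rising members lie, 33.3% of 15 such host gene peaks and 8.33% of 36 ribosomal protein gene peaks were called at least 2-fold higher, against 4.92% of 10840 over all genes. From 20 to 30 kb the host genes had none among 18 and the ribosomal protein genes 8.82% of 34, against 4.95% over all genes. From 30 to 40 kb the host genes had none among 11 and the ribosomal protein genes 6.25% of 48, against 4.98%. From 40 to 50 kb the host genes had 15.8% of 19 and the ribosomal protein genes 7.32% of 41, against 4.75%. Likeness in summed counts named other genes. Measured as the distance between the log2 changes of downstream, body and upstream sums over 7998 genes, the 5 nearest to RPL3 were RAB4A, CLSTN1, STAT6, PEX3 and PEF1 (0.03 to 0.04). Those nearest to GAS5 were SERPINB9, CLRN2, LOC100996740, ESAM-AS1 and ZBTB47-AS1 (0.02 to 0.04). Their downstream medians over peaks ran from -0.51 to 0.14, below the 0.94 of RPL3 and the 1.76 of GAS5, so the likeness holds for the sums and not for the peak medians.

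**Figure D5:**
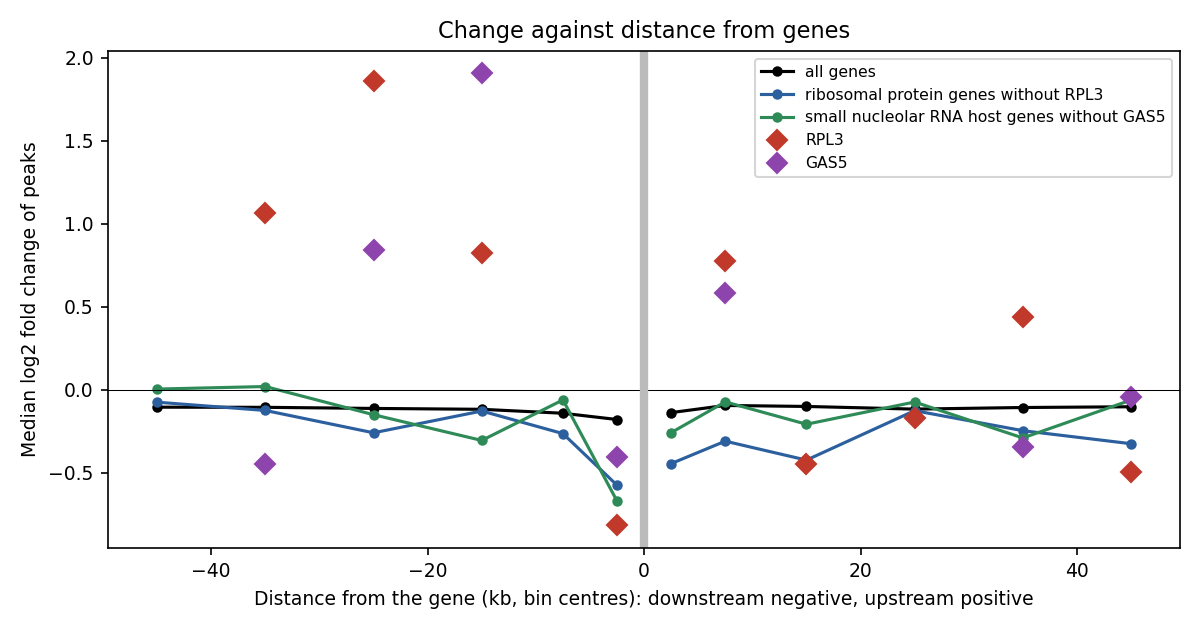
Median log2 fold change of peaks in 6 distance bins out to 50 kb on each side of all genes, of ribosomal protein genes without RPL3 and of small nucleolar RNA host genes without GAS5 (lines), with the bins of RPL3 and GAS5 that hold a peak (diamonds, 1 to 4 peaks each). The lists stand at -0.58 and -0.67 in the first 5 kb downstream and between -0.31 and 0.02 farther downstream, where the diamonds of RPL3 and GAS5 reach 1.86 and 1.91.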

How the data were processed

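The authors deposited 1 table of raw counts per peak for 8 libraries, with whole numbers throughout. Per the submitters' processing notes, which give no role or order, the tools included Trim Galore 0.6.10, BWA 0.7.17, SAMtools 1.22, Picard, MACS2 2.2.9.1, bedtools and DESeq2, and the builds hg38 and GRCh38. How peaks were merged, and whether reads or fragments were counted, is not given in the sources used here. Libraries were paired-end reads of 75 bp, per the labels' protocols. Columns were matched to samples by group and replicate number, and starts, which count from 0 in the table, are printed counting from 1.

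The members and lists were chosen with earlier results of these data known, and the distance windows of 0 to 5 kb and 10 to 35 kb after the values were seen. The fit used R 4.3.3 and edgeR 4.0.16 (filterByExpr with a minimum count of 10 and a minimum total of 15, TMM, quasi-likelihood F test, treatment as the only term), and SE is the log2 fold change divided by the root of F. The fit was tested on simulated data, in which 200 of 129406 peaks were changed 2-fold. It called 124 of the 200 (62%) and 11 unchanged peaks. Far fewer peaks were changed there than were called in the real table. Genes and positions are those of RefSeq (GRCh38.p14). Strand came from the RefSeq promoter table, which gave it for 27305 genes, 63 of 79 listed ribosomal protein genes and 26 of 29 host genes. Named peaks are those at the start and end of both genes, those called and at least 2-fold changed, and those at the 50 kb limit. The GAS5 end peak, which lies past the 1 kb set for an end, and the RPL3 peaks at 19.85 kb and at the 2.18 and 3.63 kb positions were added after their values were seen. Genes most like each are the 5 with the smallest distance in summed log2 changes of both flanks and body. Some marker and annotation results are not reported here. No genome sequence was used, so only promoters are printed. Alternatives covered scaling, filters, DESeq2 1.42.0 (Wald test), flank size, peaks at gene ends, a replicate block and each library left out. Counting error is larger for weak peaks, and PCR duplicates are not independent molecules.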

Additional observations from a re-analysis of the deposited data

Results flagged for a closer look

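In 82 groups of 4 libraries, 3 values stood far from the rest of their group, where chance flags about 1 in 20 groups (4.1 here). At the RPL3 peak 10.3 kb downstream (39301910 to 39302593), sorbitol 1 had 14.3 CPM while the other sorbitol libraries lay between 16.1 and 16.2, all above vehicle. At the RPL3 end peak (39310828 to 39312002), vehicle 4 had 48.9 CPM while the other 3 lay between 57.1 and 58.8, and it was still above every sorbitol library. In the log2 ratio of downstream to upstream counts at GAS5, sorbitol 2 had 3.45 and the other 3 had 3.75 to 3.77.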

How the results depend on the processing

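Under the 18 alternatives run for each peak with enough counts, all 10 members called at least 2-fold higher kept their direction and stayed called, with log2 fold changes of 0.91 or more. The 11 higher and 5 lower downstream calls recurred under each alternative except a mean of at least 50 counts, which left 11 of these 17 peaks, 5 of them higher and 5 lower. Upstream, the number of lower calls ranged from 0 to 3, and the RPL3 peaks at 11.4, 23.8 and 41.2 kb were each lost under some alternatives. The number of changed peaks in the whole table, 37717, became 21406 with that count minimum, which leaves fewer peaks to test (58274), and 23272 at an adjusted p under 0.01. It was 31486 by the DESeq2 Wald test and 30555 to 38658 when each library was left out.

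The log2 difference in downstream over upstream counts at RPL3, -0.10, was -0.41 with 20 kb flanks, 0.10 with 100 kb flanks, 0.99 as a difference of peak medians, and -0.15 to -0.06 when each library was left out. At GAS5, -0.14 became 1.68 without peaks at ends of other genes and 1.92 as a difference of medians, which weights weak and strong peaks alike, and -0.28 to 0.018 when each library was left out, above 0 only without vehicle 3. The difference of medians itself was -0.80 at RPL3 with 20 kb flanks and 0.42 with 100 kb flanks, and 0.90 at GAS5 with 100 kb flanks. Both differences in summed counts are within the spread between libraries, so their sign carries no call. Without vehicle 4 and sorbitol 4, an alternative chosen after seeing the data, they were -0.18 and -0.31. Libraries of the same number did not deviate together (correlations -0.15 to 0.00697, none best with its own number). A replicate block left 34444 calls in the whole table, changed no member's call, and gave -0.10 and -0.14 for RPL3 and GAS5.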
